A study of Mus with 18 samples.

Results

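Chlorogenic acid (CGA) was set against caffeic acid (CA) in RAW264.7 cells, an established mouse macrophage-like line, with both acids given on top of lipopolysaccharide (LPS). CGA is the ester of CA with quinic acid, so the comparison addresses what the quinic acid ester changes in gene expression. The difference was taken between 3 libraries of LPS with CGA and 3 of LPS with CA, chosen by the names of their columns from the 18 of the series. All 18 libraries entered the model that set the error of each gene. In both groups LPS was at 1 µg/mL and the acid at 100 µM, and RNA was taken after 6 h. No group received an acid without LPS, so every difference between the acids was measured in stimulated cells. The other 12 libraries were untreated control cells, cells with LPS alone, and cells with LPS and a cysteine adduct of CA (CACys) or of CGA (CGACys), 3 of each. All cells are of 1 line, and the labels are silent on whether the 3 libraries of a group were separate cultures. The p-values therefore reflect only how far these libraries scatter, which may be technical scatter.

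LPS is a component of bacterial outer membranes that macrophages sense through the receptor TLR4, whose signalling induces cytokine, chemokine and interferon genes. CA and CGA are catechols, and catechols can be oxidised to quinones that react with thiols such as the cysteines of the sensor protein KEAP1. Modified KEAP1 no longer drives the degradation of the transcription factor NRF2, which then induces genes for glutathione synthesis, peroxide reduction and quinone detoxification.

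Library totals ran from 16105817 to 25624935 counts over the series and from 18709510 to 25624935 in the 6 libraries compared. Each of the 23 macrophage identity genes on the marker list had a count somewhere in these 6 libraries, but some had very few. Over the libraries of each acid, Cd163 had 3 counts with CA and 0 with CGA. Lyz1 had 3 and 5, and Mrc1 had 13 and 28. Cd163, Lyz1 and Mrc1 were not tested. The 23 genes summed to 7667 to 7864 CPM (counts scaled to library size and composition) with CA. Their sum was 8472 to 8535 CPM with CGA and 8664 to 8966 CPM with LPS alone. In bulk RNA, fewer cells of a type and less RNA per cell cannot be told apart. The neutrophil and mast cell markers summed to 12.5 to 16.1 CPM with CA and 10.2 to 12 CPM with CGA, and 6 of these 10 markers (Ngp, Elane, Mpo, Cpa3, Mcpt4 and Ms4a2) had no count in any of the 6 libraries. Lymphocyte and fibroblast markers summed to at most 0.898 and 5.31 CPM. CA replicate 2 stood apart from the other 5 libraries in its ribosomal share and on the first principal component. In it, ribosomal protein genes took 4.82% of counts, against 4.07% in each of the other CA libraries and 3.77% to 4.04% with CGA. On the first principal component of the 6 libraries, which held 29.1% of the variance, it lay at -31.24, and the other 5 lay between -5.30 and 15.3. On the second, with 19.8% of the variance, CA replicate 1 lay at 25.96 and the other 5 between -9.53 and 4.73. CA replicate 2 was thus not the only library set apart. Results are given with and without CA replicate 2 where it changes them, and without other libraries where stated.

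Of 13251 tested genes, 183 (1.38%) were called different between the acids at an edgeR adjusted p of 0.05 or less. With CGA, 84 genes (0.634%) were higher and 99 (0.747%) were lower than with CA. The differences were small. The median size among the called genes was 1.22-fold, 15 of them passed 1.5-fold, and 3 low-count genes passed 2-fold. These 3 genes stayed below 2 CPM in all 6 libraries. The 3 CGA libraries and the 3 CA libraries did not overlap in CPM for 180 of the 183 called genes, and for 2213 genes (16.7%) of all those tested. The 95% interval of the difference lay within 1.5-fold for 9869 of 13250 genes (74.5%) and within 1.25-fold for 6884 (52%). The size of the list depended on the libraries. It held 87 genes without CA replicate 2, of which 34 were higher and 53 lower with CGA, and 67 of the 87 were among the 183. Leaving out CGA replicate 1, 2 or 3 gave 87, 45 or 57 genes, and leaving out CA replicate 1 or 3 gave 448 or 1063. In a model of only the 2 groups it held 3 genes, Opn3 and Adh7 among them. All 183 genes kept their direction when each of the 6 libraries was left out in turn. For the 180 without overlap this was all but fixed in advance, so it is no further support. Of the 183, 33 genes, 15 higher and 18 lower with CGA, were called in all 6 of those fits.

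Genes for glutathione synthesis and use were among those lower with CGA than with CA. Of 18 listed genes 16 passed the expression filter, and 5 of these were called lower and none higher. Of all tested genes 0.747% were called lower and 0.634% higher. These shares are the background for every list below. The median log2 difference over the 16 was -0.22, against -0.002 over all tested genes, and 15 of the 16 differences were negative. Gss encodes glutathione synthetase, the enzyme that completes the tripeptide (ENSMUSG00000027610, chromosome 2, 155563181 to 155592810, GRCm38.p6, as for all positions here). Its level was 80.9, 85.1 and 73.3 CPM with CA and 60.1, 55.1 and 59.0 CPM with CGA, against 52.2, 51.3 and 53.2 CPM with LPS alone. Every CA library was above every CGA library. The difference was -0.46 on the log2 scale (95% interval -0.59 to -0.34, edgeR adjusted p = 0.00017), and Gss was called in all 6 fits with a library left out.

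Gsta3, a glutathione transferase gene (ENSMUSG00000025934, chromosome 1, 21240565 to 21265575), measured 25.1, 28.1 and 25.2 CPM with CA and 17.4, 18.4 and 17.3 CPM with CGA. With LPS alone it was at 15.1, 16.4 and 18.8 CPM, a range that holds all 3 CGA libraries and no CA library. The log2 difference was -0.57 (-0.76 to -0.37, edgeR adjusted p = 0.00141), again called in all 6 fits. Gsta3 belongs to a family of similar genes, and how reads were shared between copies is not given in the sources used here.

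The genes for both subunits of glutamate-cysteine ligase, which starts glutathione synthesis, were lower as well. Gclc, the catalytic subunit (ENSMUSG00000032350, chromosome 9, 77754535 to 77794489), had 324, 274 and 275 CPM with CA and 247, 228 and 236 CPM with CGA. Gclm, the modifier subunit (ENSMUSG00000028124, chromosome 3, 122245487 to 122267215), had 2145, 1996 and 1942 CPM with CA and 1730, 1641 and 1673 CPM with CGA. The acids did not overlap for either gene. Log2 differences were -0.30 (-0.43 to -0.16) for Gclc and -0.27 (-0.39 to -0.15) for Gclm, with edgeR adjusted p of 0.0201 and 0.0163. Both calls were lost without CA replicate 2 (edgeR adjusted p of 0.0836 and 0.164), without CGA replicate 2 and without CGA replicate 3. Slc3a2, the heavy chain that partners the cystine transporter, was lower by a smaller margin (1284 ± 75.9 against 1137 ± 32.5 CPM, SD, n = 3, log2 -0.18, edgeR adjusted p = 0.036) and was called in only 1 of the 6 fits, the one without CA replicate 3. Slc7a11, the cystine-carrying chain of that transporter, was not called (log2 -0.07, -0.26 to 0.12). The glutathione list held 2 called genes and a median of -0.185 once CA replicate 2 was left out, and also 2 called genes without CGA replicate 2 or 3.

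Thioredoxin and peroxide genes showed 4 of 12 members lower with CGA and none higher, with a median log2 difference of -0.14 and 11 of 12 negative. Prdx6, a peroxiredoxin gene (ENSMUSG00000026701, chromosome 1, 161240112 to 161251210), was at 319, 354 and 306 CPM with CA and 258, 236 and 257 CPM with CGA. LPS alone gave 225, 225 and 227 CPM, below all libraries with either acid. The log2 difference between the acids was -0.38 (-0.49 to -0.28, edgeR adjusted p = 0.00017) and was called in all 6 fits. Srxn1, which encodes the sulfiredoxin that repairs overoxidised peroxiredoxins (ENSMUSG00000032802, chromosome 2, 152105524 to 152111376), was at 1630, 1553 and 1478 CPM with CA and 1249, 1167 and 1182 CPM with CGA. Here too the groups were apart, with CA above CGA by 0.37 on the log2 scale (log2 -0.37, -0.50 to -0.25, edgeR adjusted p = 0.00144). The size stayed at -0.37 without CA replicate 2, where the adjusted p was 0.0701.

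Prdx1, another peroxiredoxin gene, and Sod1, the cytosolic superoxide dismutase gene, had their highest values in CA replicate 2. Prdx1 was at 6440, 7448 and 5790 CPM with CA and 5287, 4776 and 5130 CPM with CGA. Sod1 was at 213, 255 and 209 CPM with CA and 192, 178 and 191 CPM with CGA. Their log2 differences of -0.37 and -0.27 (edgeR adjusted p of 0.0334 and 0.0263) became -0.27 and -0.18 without CA replicate 2, with adjusted p of 0.226 and 0.0959. Both calls were also lost when any of the 3 CGA libraries was left out. In the fit that left out CA replicate 2, 1 member of the list was called, and 2 were in each fit that left out a CGA library. Without CA replicate 3 there were 7, and the median was -0.203. Txnrd1, the cytosolic thioredoxin reductase gene, named after its values were seen, was not called (log2 -0.11, -0.20 to -0.01, edgeR adjusted p = 0.226).

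**Figure D1:**
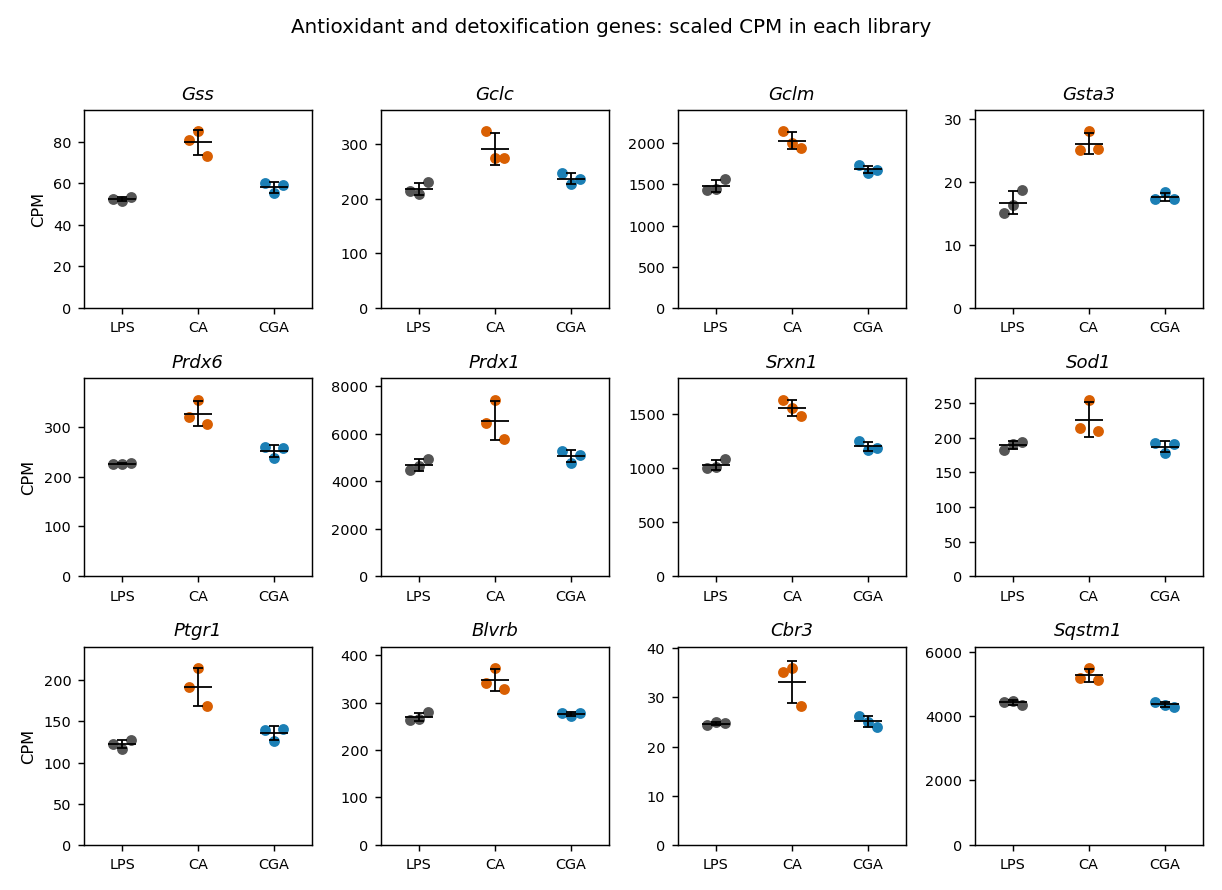
Level of 12 antioxidant and detoxification genes in each library with LPS alone, LPS with CA (CA) and LPS with CGA (CGA), in scaled CPM on axes that start at 0; bars show the mean ± SD of 3 libraries. For every gene all 3 CA libraries lie above all 3 CGA libraries, for example 73.3 to 85.1 against 55.1 to 60.1 CPM for Gss. All 12 were drawn from the called genes, of which 180 of 183 do not overlap between the acids, against 16.7% of all tested genes.

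Among genes for quinone and electrophile detoxification, 5 of 17 were lower with CGA and none higher, with a median of -0.12 and 15 of 17 negative. Ptgr1 encodes a reductase of prostaglandins and reactive alkenals (ENSMUSG00000028378, chromosome 4, 58965590 to 58987131). It was at 192, 215 and 169 CPM with CA, 140, 126 and 141 CPM with CGA and 123, 117 and 127 CPM with LPS alone. CA and CGA did not overlap, and the log2 difference was -0.50 (-0.66 to -0.35, edgeR adjusted p = 0.00123). Blvrb, a flavin and biliverdin reductase gene (ENSMUSG00000040466, chromosome 7, 27447978 to 27465981), was at 343, 373 and 328 CPM with CA and 279, 272 and 279 CPM with CGA. Its log2 difference was -0.33 (-0.43 to -0.23, edgeR adjusted p = 0.000624), and both Ptgr1 and Blvrb were called in all 6 fits.

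The carbonyl reductase gene Cbr3 (log2 -0.41), the aldehyde reductase gene Akr1a1 (-0.25) and Esd (-0.23), an S-formylglutathione hydrolase gene named after its values were seen, made up the rest of the called members. By edgeR their adjusted p was 0.0335, 0.018 and 0.0335. Esd lost its call without CA replicate 2 (adjusted p = 0.199) or any CGA library. Cbr3 was called in only 1 of the 6 fits, the one without CA replicate 3. Akr1a1 was lost without CA replicate 2 (log2 -0.17, adjusted p = 0.0573), CGA replicate 2 or 3. The list held 3 called members without CA replicate 2, and 2 without CGA replicate 2 or 3. Its median was -0.194 without CGA replicate 1. The classic NRF2 target Nqo1, a quinone reductase gene, had 46.4, 41.1 and 42.7 CPM with CA and 40.3, 37.4 and 37.4 CPM with CGA. Those groups did not overlap, as for 16.7% of all tested genes, and Nqo1 was not called (log2 -0.18, edgeR adjusted p = 0.281).

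Of the 8 genes of the pentose phosphate pathway and NADPH supply, 2 were lower with CGA and none higher, and all 8 differences were negative with a median of -0.16. Without CA replicate 2 the median was -0.0836, with 7 of 8 negative and 1 gene called. Pgd encodes the phosphogluconate dehydrogenase that makes NADPH. It was at 1620 ± 81.5 CPM with CA and 1425 ± 29.2 CPM with CGA (SD, n = 3), a log2 difference of -0.19 (edgeR adjusted p = 0.0296). Taldo1, the transaldolase gene, was at 1142 ± 87.8 and 988 ± 35.0 CPM, a log2 difference of -0.21 (edgeR adjusted p = 0.0381). Pgd lost its call when any CGA library was left out, and Taldo1 kept its call only without CA replicate 3. Without CA replicate 2 the adjusted p was 0.0403 for Pgd and 0.14 for Taldo1.

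Among 8 genes that regulate NRF2, only Sqstm1 was called. It encodes p62, an autophagy receptor that binds KEAP1 and is itself an NRF2 target (ENSMUSG00000015837, chromosome 11, 50200152 to 50210820). Sqstm1 was at 5173, 5491 and 5108 CPM with CA, 4433, 4356 and 4293 CPM with CGA and 4449, 4470 and 4339 CPM with LPS alone. The CGA libraries overlapped those with LPS alone, and all CA libraries lay above both. The log2 difference was -0.27 (-0.35 to -0.19, edgeR adjusted p = 0.000453), called in all 6 fits. The transcript of NRF2 itself, Nfe2l2, was not called (log2 0.04, -0.05 to 0.14), nor was Keap1 (-0.03, -0.14 to 0.07). Both genes were named after their values were seen.

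Among metal and heme genes, 1 iron gene and 1 zinc gene were called. Hmox1, the heme oxygenase gene and an NRF2 target, was at 3792, 3578 and 3003 CPM with CA and 2745, 2418 and 2645 CPM with CGA. The groups were apart, as for 16.7% of all tested genes, and the difference did not pass (log2 -0.41, -0.69 to -0.13, edgeR adjusted p = 0.14). Hmox1 was called in 1 of the 6 fits with a library left out, the one without CA replicate 3. Slc40a1, the iron exporter ferroportin (ENSMUSG00000025993, chromosome 1, 45908070 to 45926532), was the only called member of 13 heme and iron genes. It was at 263, 234 and 246 CPM with CA and 202, 185 and 184 CPM with CGA (log2 -0.38, -0.53 to -0.23, edgeR adjusted p = 0.0111). Its call was lost without CA replicate 2 (adjusted p = 0.0722), CGA replicate 2 or 3. Slc30a1, a zinc exporter gene (ENSMUSG00000037434, chromosome 1, 191906697 to 191913248), was the only called member of 8 metallothionein and zinc transporter genes. Its level was 121, 122 and 124 CPM with CA and 108, 103 and 104 CPM with CGA (log2 -0.22, edgeR adjusted p = 0.0175), and the call was lost without CGA replicate 2 or 3.

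Of 13 tested genes that handle catechols, esters and conjugates, none was called by edgeR, and the median was 0. At an unadjusted p under 0.05 there was 1. DESeq2 called 1 lower, as did edgeR with no expression filter or without CA replicate 2. None of 5 tested aryl hydrocarbon receptor genes was called by edgeR or DESeq2, and 2 had an unadjusted edgeR p under 0.05.

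The cytosolic ribosomal protein genes had negative differences as well. None of 41 was called by edgeR and 33 had an unadjusted p under 0.05, which 2335 of all 13251 tested genes had (17.6%). DESeq2 called 3, and edgeR called 20 with no expression filter, 11 without CA replicate 1 and 21 without CA replicate 3, all lower with CGA. All 41 differences were negative, with a median of -0.16. Without CA replicate 2 that median was -0.0476. The glutathione, thioredoxin, quinone and pentose phosphate lists then had medians of -0.185, -0.12, -0.166 and -0.0836. The calls of Gss, Gsta3, Prdx6, Ptgr1, Blvrb, Pgd and Sqstm1 were made without that library too. Those of Gclc, Gclm, Slc3a2, Srxn1, Prdx1, Sod1, Akr1a1, Cbr3, Esd and Taldo1 were lost without it. The part of the ribosomal share in the calls was not tested.

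Set beside LPS alone, the 2 acids gave different numbers of calls. CA with LPS differed from LPS in 1023 genes (7.72%) and CGA with LPS in 96 (0.724%). The second count rested on single libraries. Leaving out LPS replicate 1, 2 or 3 gave 2, 0 or 233 genes, and leaving out CGA replicate 1, 2 or 3 gave 11, 63 or 0. In the 2 fits with no call, 896 and 1121 genes had an unadjusted edgeR p under 0.05. For CA the count was 642, 541 or 941 when LPS replicate 1, 2 or 3 was left out. These comparisons share the 3 LPS libraries, so the values are only placed side by side. Gss, Srxn1 and Prdx6 were taken from the genes called lower with CGA than with CA. Their higher value against LPS with CA than with CGA follows from that choice and is no further result. The same holds for the order of the acids in the other called genes set beside LPS alone. Against LPS, Gss was 0.61 higher on the log2 scale with CA (edgeR adjusted p = 1.03e-06), and its value was 0.15 with CGA (adjusted p = 0.371). Srxn1 was 0.60 higher with CA (edgeR adjusted p = 2.52e-06), and its value was 0.22 with CGA (adjusted p = 0.0856). Prdx6 was 0.53 higher with CA (edgeR adjusted p = 6.14e-07), and its value was 0.15 with CGA (adjusted p = 0.205). Over the 16 glutathione genes the median log2 difference from LPS was 0.32 with CA and 0.04 with CGA.

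Among macrophage identity genes, 3 of 20 tested were higher with CGA and 1 was lower, with a median of 0.10. Marco and Adgre1 were among the called genes on the one side, and Cebpa was the gene on the other. Marco encodes a scavenger receptor that binds bacteria and particles (ENSMUSG00000026390, chromosome 1, 120474538 to 120505024). It was at 300, 308 and 259 CPM with CA, 413, 393 and 379 CPM with CGA and 387, 394 and 420 CPM with LPS alone. The CGA libraries overlapped those with LPS alone, and all CA libraries lay below both. The log2 difference between the acids was 0.45 (0.33 to 0.56, edgeR adjusted p = 0.00017), called in all 6 fits.

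Adgre1, which encodes the F4/80 surface antigen used to mark mouse macrophages (ENSMUSG00000004730, chromosome 17, 57358581 to 57483529), was at 316, 287 and 301 CPM with CA and 364, 367 and 359 CPM with CGA. The CGA libraries lay close together and above every CA library, a log2 difference of 0.27 (0.17 to 0.37, edgeR adjusted p = 0.00512) that was called in all 6 fits. Cebpa, a myeloid transcription factor gene, was the member that went the other way. Its level was 31.6, 28.4 and 24.0 CPM with CA and 20.5, 19.1 and 18.1 CPM with CGA (log2 -0.55, -0.82 to -0.28, edgeR adjusted p = 0.0387), and it was called in only 1 of the 6 fits, the one without CA replicate 3. Cd68 and Csf1r, 2 other macrophage genes named after their values were seen, were not called, with log2 differences of 0.03 (-0.06 to 0.11) and 0.10 (0.01 to 0.19). Of 21 list genes tested without CA replicate 2, 3 were called higher and none lower. Marco and Adgre1 were among these 3, but the set was not the same as with all libraries.

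**Figure D2:**
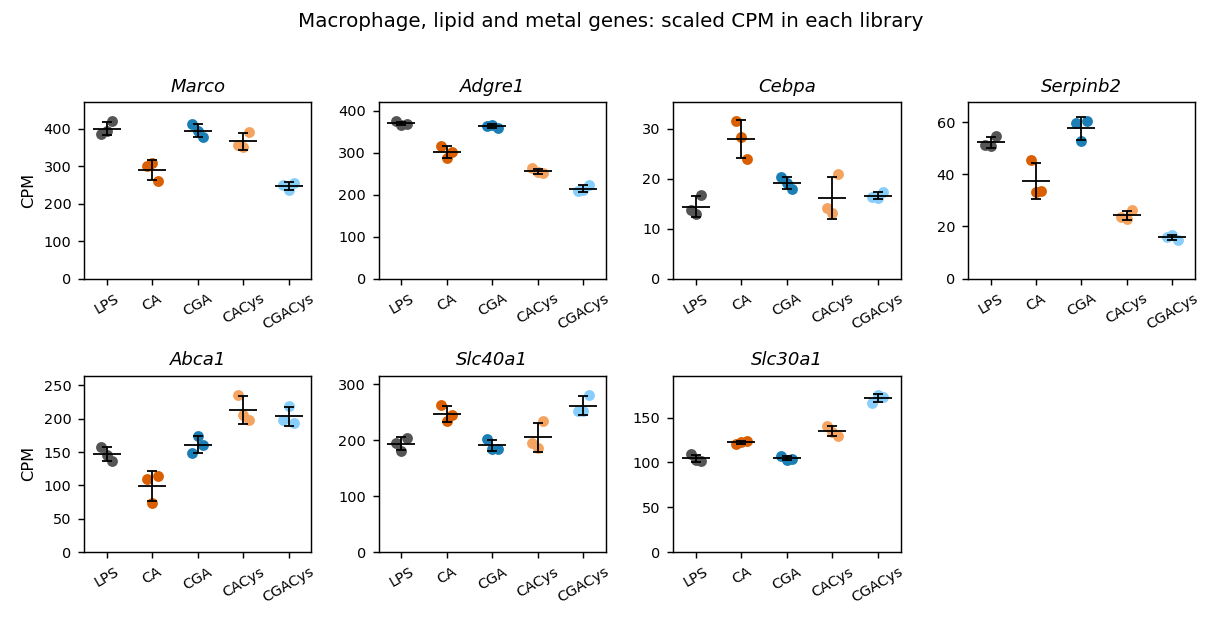
Level of 7 genes in each library, in scaled CPM on axes that start at 0, for LPS alone and LPS with CA, CGA, CACys or CGACys; bars show the mean ± SD of 3 libraries. Marco is lower with CA (259 to 308 CPM) than with CGA (379 to 413 CPM), while in the adduct pair it is lower with CGACys.

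C5ar1, the receptor for complement fragment C5a (ENSMUSG00000049130, chromosome 7, 16246743 to 16259540), was at 347, 319 and 322 CPM with CA and 397, 401 and 401 CPM with CGA. Itgal, the alpha chain of the integrin LFA-1 (ENSMUSG00000030830, chromosome 7, 127296139 to 127335137), was at 271, 233 and 275 CPM with CA and 321, 324 and 311 CPM with CGA. Both groups of libraries were apart for each gene. Log2 differences were 0.28 and 0.30, with edgeR adjusted p of 0.000892 and 0.00315, and both genes were called in all 6 fits. They were named after their values were seen. Ezr, which encodes the membrane-to-actin linker ezrin and was also named after its values were seen, was lower with CGA (360 ± 17.2 CPM with CA and 286 ± 7.90 CPM with CGA, SD, n = 3, log2 -0.33, edgeR adjusted p = 0.000184).

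Among 16 genes of the LPS receptor and its adaptors, 2 were higher with CGA and none lower. Of all tested genes 0.634% were called higher. Irak3, an inhibitory kinase-like protein that restrains TLR signalling, was at 158, 144 and 157 CPM with CA and 177, 189 and 170 CPM with CGA (log2 0.22, 0.12 to 0.33, edgeR adjusted p = 0.0235). Ticam2, an adaptor for the endosomal branch of TLR4 signalling, was at 1.62, 1.48 and 1.34 CPM with CA and 2.55, 3.35 and 2.90 CPM with CGA (log2 0.99, 0.50 to 1.48, edgeR adjusted p = 0.036). Neither was called without CA replicate 2, with adjusted p of 0.0612 for Irak3 and 0.0959 for Ticam2. Irak3 was also lost without CGA replicate 1 or 2, and Ticam2 without any of the 3 CGA libraries.

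Of the genes for endosomal nucleic acid receptors, a group put together after the values were seen, Tlr7, Tlr8 and Tlr9 were called higher with CGA. Tlr3 (log2 0.15, edgeR adjusted p = 0.594) and Tlr13 (log2 -0.10, edgeR adjusted p = 0.308) were not called. Tlr8 met the naming rule, while Tlr7 and Tlr9 were named after their values were seen. Tlr7, a sensor of single-stranded RNA on chromosome X, was at 107, 92.2 and 116 CPM with CA and 132, 128 and 128 CPM with CGA (log2 0.30, edgeR adjusted p = 0.0263). Tlr9, a sensor of unmethylated CpG DNA on chromosome 9, was at 10.6, 9.01 and 12.3 CPM with CA and 14.3, 14.3 and 15.3 CPM with CGA (log2 0.47, edgeR adjusted p = 0.0241). Tlr8 was at 24.5, 17.3 and 24.2 CPM with CA and 28.4, 34.6 and 34.3 CPM with CGA (log2 0.57, edgeR adjusted p = 0.0384). In Tlr7, Tlr8 and Tlr9 the CA library with the lowest level was replicate 2. Without it the Tlr8 difference was 0.42 with an adjusted p of 0.174, and Tlr8 was also lost without CGA replicate 2 or 3. Tlr7 and Tlr9 were called in 2 of the 6 fits, those without CA replicate 1 or 3, and their adjusted p without CA replicate 2 was 0.114 and 0.14.

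The other genes with the largest differences have varied roles. Thbs1, the secreted matrix glycoprotein thrombospondin 1 (ENSMUSG00000040152, chromosome 2, 118111876 to 118127133), was at 15, 10.4 and 14.5 CPM with CA and 20.2, 22.8 and 19.4 CPM with CGA (log2 0.65, 0.43 to 0.88, edgeR adjusted p = 0.00123). Serpinb2, plasminogen activator inhibitor 2 (ENSMUSG00000062345, chromosome 1, 107500892 to 107525600), was at 45.4, 33.2 and 33.8 CPM with CA and 59.8, 52.6 and 60.3 CPM with CGA (log2 0.62, 0.43 to 0.81, edgeR adjusted p = 0.000624). Both genes were called in all 6 fits, and their groups did not overlap, which the naming rule required. Abca1, the cholesterol efflux transporter and the only called member of 9 genes of LXR targets and cholesterol efflux, was at 110, 73.0 and 114 CPM with CA and 149, 174 and 160 CPM with CGA (log2 0.71, 0.41 to 1.00, edgeR adjusted p = 0.0256). Its value was 0.52 without CA replicate 2, where it was still called, and it was lost without CGA replicate 2 or 3.

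Rassf2 (log2 0.54), a Ras association domain gene, Iqgap3 (0.52), an actin and Ras effector scaffold gene, and the imprinted retrotransposon-derived gene Peg10 (0.49) were likewise higher with CGA and called in all 6 fits. Their edgeR adjusted p was 0.000624, 0.000624 and 0.00315. Prkce, a protein kinase C gene, Iqgap2, another scaffold gene of that family, and Gm6377 were higher by 0.51, 0.81 and 0.64 on the log2 scale, with edgeR adjusted p of 0.0119, 0.0384 and 0.0159. Each lost its call in 2 to 4 of the 6 fits, Prkce and Iqgap2 among others without CA replicate 2 (adjusted p of 0.0671 and 0.147). Gm6377 lost it without CGA replicate 2 or 3.

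On the lower side, Opn3, an opsin gene (ENSMUSG00000026525, chromosome 1, 175662421 to 175692901), was at 68.2, 75.1 and 59.7 CPM with CA and 45.4, 43.1 and 42.9 CPM with CGA (log2 -0.63, -0.84 to -0.42, edgeR adjusted p = 0.00188). Its gene body overlaps Chml, and without known strand the reads of the pair cannot be told apart. Plk2, a stress-induced kinase gene and the only called member of 15 p53 target genes (ENSMUSG00000021701, chromosome 13, 110395044 to 110400844), was at 216, 248 and 266 CPM with CA and 172, 178 and 180 CPM with CGA (log2 -0.46, -0.59 to -0.33, edgeR adjusted p = 0.000397). Opn3 and Plk2 were both called in all 6 fits.

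Adh7, an alcohol dehydrogenase gene that acts on retinol and medium-chain alcohols (ENSMUSG00000055301, chromosome 3, 138198064 to 138232042), was named after its values were seen. Its level was 152, 148 and 147 CPM with CA, 117, 115 and 112 CPM with CGA and 96.9, 90.1 and 102 CPM with LPS alone. The 3 groups did not overlap, with CA highest and CGA between CA and LPS. The log2 difference between the acids was -0.38 (-0.52 to -0.24, edgeR adjusted p = 0.00281), called in all 6 fits and in the model of only these groups.

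The guidance receptor gene Unc5b (log2 -0.59), the iron-sulfur cluster assembly gene Lyrm4 (-0.55) and Afp, the alpha-fetoprotein gene (-0.48), were also lower with CGA, with edgeR adjusted p of 0.00928, 0.0084 and 0.0111. All 3 were lost without CGA replicate 2, and Unc5b also without CGA replicate 3. Rida, Trdc and Hbb-bh1, which stayed at or below 10.9 CPM in all 6 libraries, had log2 differences of -0.57, -0.69 and -0.69 and edgeR adjusted p of 0.0389, 0.0435 and 0.0335. None of these last 3 was called without CA replicate 2, where the adjusted p was 0.114 to 0.212. Reads of Trdc, a T cell receptor constant segment, and of Hbb-bh1, an embryonic globin gene, may be shared with similar sequences.

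Single members of the remaining lists were called, beside 1.38% of all tested genes called in either direction. Hif1a, the hypoxia-inducible factor gene, was the only called member of 31 hypoxia and glycolysis genes (276 ± 18.8 CPM with CA and 329 ± 3.54 CPM with CGA, SD, n = 3, log2 0.25, edgeR adjusted p = 0.0163). Ccnd3, the cyclin D3 gene, whose body overlaps Bysl, was the only one of 14 genes for D cyclins, G1 kinases and Myc (31.3 ± 3.55 and 38.2 ± 1.09 CPM, log2 0.29, edgeR adjusted p = 0.0429). Alox5ap, which encodes the activating protein of leukotriene synthesis, was the only one of 12 prostaglandin and leukotriene genes (45.3 ± 3.29 and 36.5 ± 0.471 CPM, log2 -0.31, edgeR adjusted p = 0.0148). Hif1a and Ccnd3 kept their calls only without CA replicate 1 or CA replicate 3, and without CA replicate 2 their adjusted p was 0.0944 and 0.25. Alox5ap lost its call without CGA replicate 2 or 3.

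Of 32 immediate early genes, Fosl2 was higher (log2 0.25) and Atf3 lower (log2 -0.18) with CGA, with edgeR adjusted p of 0.0467 and 0.0464. Both encode leucine zipper transcription factors. The libraries of the acids overlapped for Fosl2, at 142, 127 and 156 CPM with CA and 149, 173 and 183 CPM with CGA, and its adjusted p was 0.226 without CA replicate 2. Fosl2 was also lost without CA replicate 1, CGA replicate 2 or 3, and Atf3 without CA replicate 1, CGA replicate 2 or 3. All 29 tested genes of the ATF4 and amino acid response had negative differences, with a median of -0.10, and 2 of them were called lower, Slc3a2 and Atf5, a stress-induced transcription factor gene. Atf5 (294 ± 22.8 CPM with CA and 255 ± 2.90 CPM with CGA, SD, n = 3, log2 -0.20, edgeR adjusted p = 0.0263) overlaps Nup62. Without CA replicate 2 neither was called (adjusted p of 0.0568 for Slc3a2 and 0.0994 for Atf5), and Atf5 was also lost without any of the CGA libraries.

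**Figure D3:**
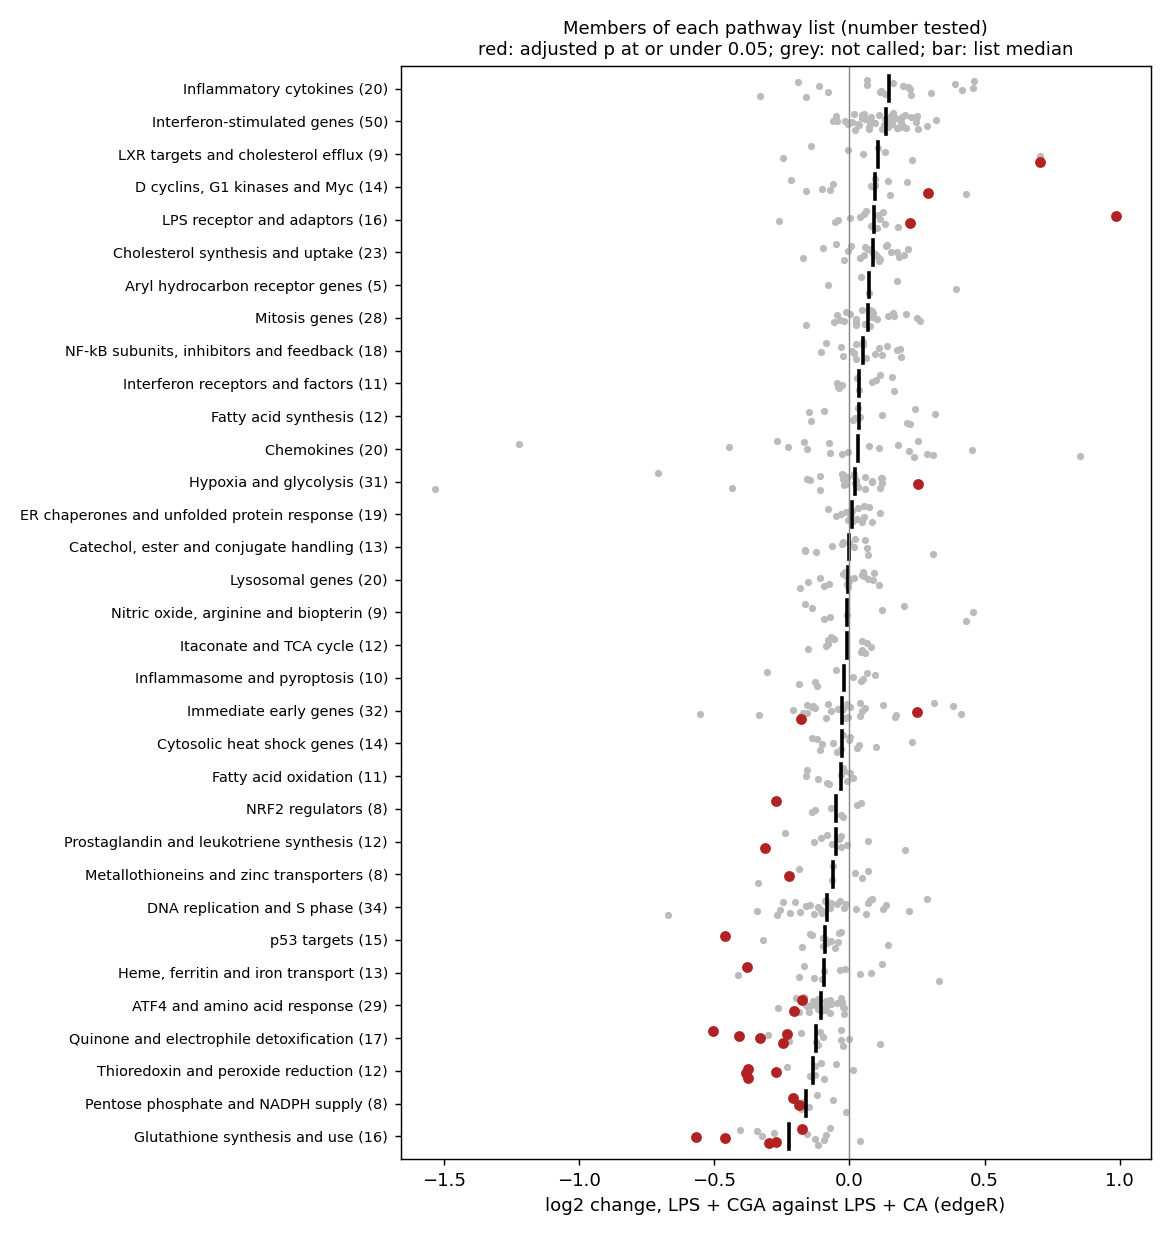
Log2 difference of CGA against CA with LPS for each tested member of 33 pathway lists, ordered by the list median (black bar), with called genes in red. The called genes of the 4 lists at the bottom all lie left of 0 (16 genes), and none of the 50 interferon-stimulated genes or 20 cytokine genes was called by edgeR.

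The lists of inflammatory genes held no edgeR call between the acids, and a few in some other fits. None of 20 tested cytokine genes, 20 chemokine genes, 18 genes of NF-kB and its feedback, 9 nitric oxide genes or 50 interferon-stimulated genes passed by edgeR. In these lists 5, 8, 6, 4 and 11 genes had an unadjusted edgeR p under 0.05, against 17.6% of all tested genes. Without CA replicate 2 the numbers were 7, 5, 2, 2 and 1, against 1264 of all 13542 tested genes. DESeq2 called 1, 3 (2 higher and 1 lower), 1, 2 and 2 of those it tested. With no expression filter edgeR called 2, 3, 1, 1 and 9 in the same order, without CA replicate 3 it called 2, 2, 3, 1 and 1, and without CA replicate 1 it called 1, 1, 0, 2 and 0. Without CGA replicate 1 it called 1 cytokine gene. Nos2, the inducible nitric oxide synthase gene, was at 232, 224 and 269 CPM with CA, 336, 353 and 306 CPM with CGA and 441, 442 and 372 CPM with LPS alone. The 3 groups did not overlap and CGA lay in the middle, but the difference between the acids missed the threshold (log2 0.46, 0.19 to 0.73, edgeR adjusted p = 0.0878). Nos2 was called in 1 of the 6 fits with a library left out, the one without CA replicate 3. Il1b, the interleukin 1 beta gene, was at 389, 537 and 516 CPM with CA and 569, 697 and 714 CPM with CGA, also without overlap (log2 0.46, 0.13 to 0.78, edgeR adjusted p = 0.149). Of all tested genes 16.7% had no overlap between the acids. For the chemokine gene Ccl2 the log2 difference was 0.31 (0.03 to 0.59, edgeR adjusted p = 0.246).

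For other mediators the interval included 0. Tnf, the tumor necrosis factor gene, was at 683, 1039 and 1080 CPM with CA and 696, 842 and 916 CPM with CGA, a full overlap (log2 -0.19, -0.58 to 0.20). The interleukin 6 gene Il6 gave 0.07 (-0.13 to 0.27), the anti-inflammatory cytokine gene Il10 gave 0.30 (-0.0012 to 0.61) and Ptgs2, the inducible cyclooxygenase gene, gave -0.08 (-0.18 to 0.02). Cdkn1a, the p21 cell cycle inhibitor gene, gave -0.04 (-0.15 to 0.07). These intervals hold the difference of Ptgs2 and Cdkn1a within 1.25-fold in both directions, and leave that of Tnf less closely bounded.

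Interferon-linked genes of the panel were not called either. Ifit1, an interferon-induced antiviral gene, was at 337 ± 29.8 CPM with CA and 344 ± 29.6 CPM with CGA (SD, n = 3, log2 0.03, -0.24 to 0.31), against 487 ± 68.0 CPM with LPS alone, and its body overlaps Ifit1bl1. The chemokine gene Cxcl10, which overlaps Art3, was at 253 ± 20.9 and 266 ± 18.6 CPM (log2 0.07, -0.20 to 0.34), against 386 ± 51.9 CPM with LPS alone. Over the 50 interferon-stimulated genes the median between the acids was 0.14, with 5 negative. Without CGA replicate 2 it was 0.0749, with 11 negative, and the other 5 fits with a library left out gave 0.11 to 0.199. The medians against the shared LPS libraries were -0.53 with CA and -0.38 with CGA. Ifnb1, the interferon beta gene, stayed below 1 CPM in all 6 libraries, and its interval from -1.38 to 1.30 leaves its difference undetermined.

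**Figure D4:**
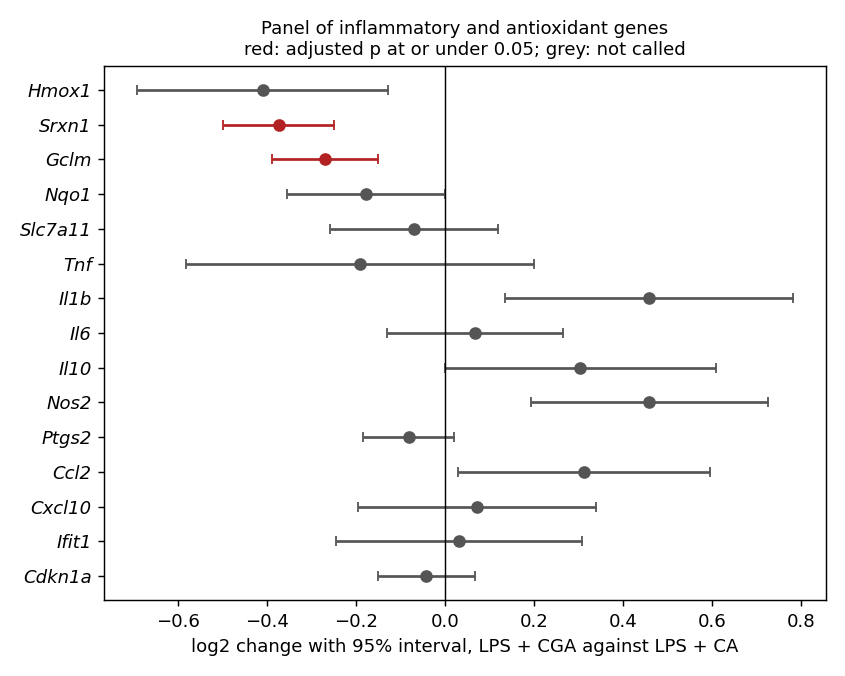
Log2 difference of CGA against CA with LPS and its 95% interval (edgeR) for 15 genes of an inflammatory and antioxidant panel; Ifnb1, whose interval is wider than the axis, is not drawn. Srxn1 and Gclm (red) were called lower with CGA, at -0.37 and -0.27, and the other 13 genes drawn were not called.

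The same change in structure was also measured between the cysteine adducts, CGACys against CACys, at the same dose and time and in other libraries. The error of both pairs came from the same model of all 18 libraries. Thus 2 pairs of compounds were compared, each with its p-values adjusted over all tested genes. Between the adducts 239 genes (1.8%) were called. Of the 183 genes called between CGA and CA, 14 (7.65%) were called between the adducts, all 14 in the opposite direction and none in the same direction. Of the 183, 65 (35.5%) had the same sign in both pairs, against 50.2% over all tested genes. Both counts depended on the fit. The share of the same sign was 51% among the 1063 genes called without CA replicate 3, 46.9% with no expression filter and 42% by DESeq2. It was 41.3% without CA replicate 1, 23.5% without the control libraries, and 21.1% to 27.6% without CA replicate 2 or any CGA library. Calls in the same direction numbered 9 against 28 in the opposite one without CA replicate 3, 27 against 36 with no filter and 8 against 41 by DESeq2. They numbered 1 against 25 without CA replicate 1, 1 against 12 with a replicate block, and 0 against 21 without CA replicate 2. Leaving out CGA replicate 1, 2 or 3 gave 0 against 10, 7 or 6. The difference between the 2 ester effects, tested as a contrast over the 4 groups, was called for 289 genes (2.18%).

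The 7 genes higher with CGA than with CA, and lower with CGACys than with CACys, were Marco, Serpinb2, Adgre1, Rassf2, Cd33, Arap3 and Fmnl1. Marco was at 356, 351 and 392 CPM with CACys and 250, 235 and 255 CPM with CGACys, so the ester adduct was the lower of the pair in every library (log2 -0.57, edgeR adjusted p = 1.82e-06). The 2 ester effects on Marco differed by 1.02 on the log2 scale (edgeR adjusted p = 8.45e-09). Serpinb2 was at 23.8, 22.7 and 26.2 CPM with CACys and 15.9, 16.9 and 14.9 CPM with CGACys (log2 -0.61, edgeR adjusted p = 0.0022), and its ester effects differed by 1.23. For Adgre1 the adduct difference was -0.25, for Rassf2 it was -0.36, and for Cd33, a sialic acid-binding inhibitory receptor gene, it was -0.32.

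The 7 genes lower with CGA than with CA, and higher with CGACys than with CACys, were Slc40a1, Slc30a1, Adh7, Atf3, Kitl, Bid and Otulin. Slc30a1 was at 140, 134 and 130 CPM with CACys and 166, 176 and 173 CPM with CGACys (log2 0.35, edgeR adjusted p = 9.22e-05). Its ester effects, each without overlap between the libraries of the pair, differed by -0.57 (edgeR adjusted p = 1.58e-05). Slc40a1 was at 195, 186 and 234 CPM with CACys and 252, 252 and 281 CPM with CGACys (log2 0.35, edgeR adjusted p = 0.0142). Adh7 had an adduct difference of 0.27 and Atf3 of 0.28, and Kitl, which encodes stem cell factor, had 0.34. Arap3, Fmnl1, Cd33, Kitl, Bid and Otulin were named after their values were seen, because they were called in both pairs. Of the 14 genes, Marco, Serpinb2, Adgre1, Rassf2, Fmnl1 and Adh7 were called between the parent acids in all 6 fits with a library left out. Arap3, Kitl, Bid, Otulin and Cd33 were called in 1 or 2 of them, with a highest edgeR adjusted p of 0.158 to 0.215.

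The antioxidant genes that separated the parent acids were not called between the adducts. Gss was at 51.2, 58.6 and 59.1 CPM with CACys and 60.9, 58.4 and 63.2 CPM with CGACys (log2 0.11, edgeR adjusted p = 0.469), libraries that overlap. Srxn1 had an adduct difference of 0.18 (edgeR adjusted p = 0.132) and Sqstm1 of 0.13 (edgeR adjusted p = 0.0967). The test of the difference between the pairs was passed by Gss (-0.57, edgeR adjusted p = 0.000347), Srxn1 (-0.56, 0.000514) and Sqstm1 (-0.40, 0.00012). It was not passed by Gsta3 (-0.39, edgeR adjusted p = 0.162), Prdx1 (-0.36, 0.124) or Sod1 (-0.21, 0.245). Of the 183 genes, 100 passed it. That count, and the passing of the single genes named here, reuse the difference by which the 183 were chosen. Both are given as a description. Opn3 and Thbs1, 2 of the larger differences between the parent acids, had adduct differences of -0.18 and -0.16, neither called.

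**Figure D5:**
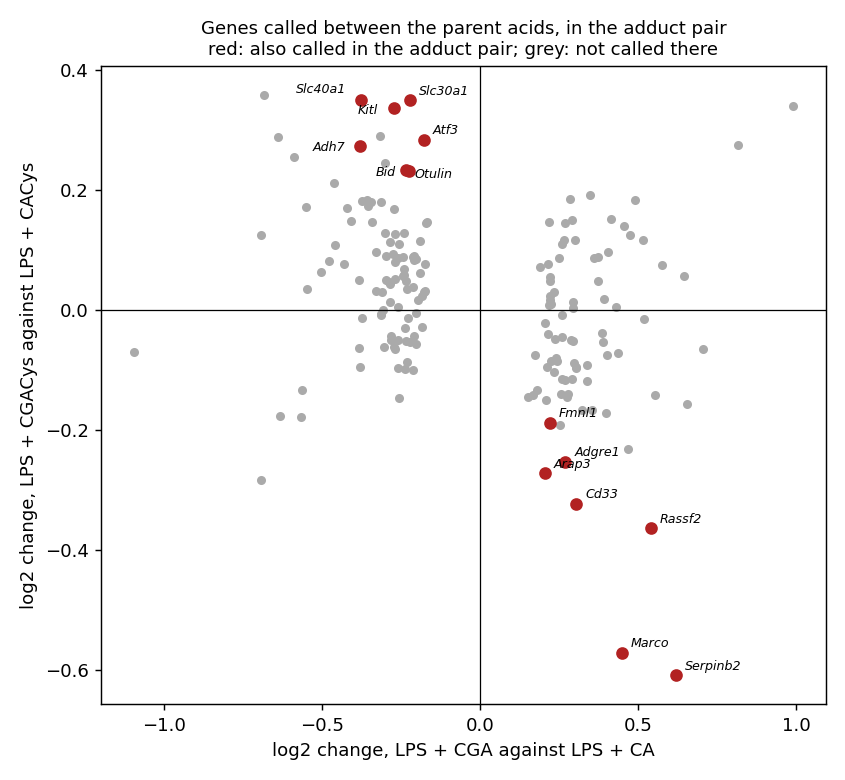
Log2 difference between the adducts (CGACys against CACys, vertical) against that between the parent acids (CGA against CA, horizontal), all with LPS, for 181 of the 183 genes called between the parent acids; 2 genes lie beyond the horizontal limit of 1.2. The 14 genes called in both pairs (red, named) all lie in the 2 quadrants of opposite sign.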

How the data were processed

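RNA-seq counts per Ensembl gene were deposited by the authors as raw counts for 18 libraries. HISAT, DESeq2 and the mm10 build were named without versions, per the submitters' processing notes. The counting program, strand and annotation release are not given in the sources used here. The counts were analysed in R 4.3.3 with edgeR 4.0.16, using filterByExpr defaults (13251 of 54532 genes kept), TMM factors and 1 quasi-likelihood model of all 6 groups with robust dispersions (common biological coefficient of variation 5.68%). P-values are two-sided and were adjusted by the method of Benjamini and Hochberg across the 13251 genes, with calls at 0.05. Standard errors were taken from the log2 change and its F statistic, and 95% intervals follow from them. Levels are CPM with TMM-scaled library sizes, except the sums of markers, which use library sizes without TMM factors. Totals are counts without molecular identifiers.

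Positions are from RefSeq on GRCm38.p6, matched by exact symbol for 12411 tested genes. The method was first tested on simulated counts. The gene lists, the naming rule and the members were chosen with earlier results of these data known. The rule took up to 12 called genes per direction with the largest change, a mean of at least 50 counts and no overlap between groups. It added up to 4 called members per list, a panel of 17 genes and the 4 largest differences between the ester effects. Same-numbered CA and CGA libraries did not deviate together (correlations of 0.03, -0.07 and -0.01), so the numbers were not used as pairs. No library pair within either group agreed within sampling noise. The alternatives were other scaling factors (RLE, upper quartile), other expression filters, DESeq2 1.42.0, a replicate term, fewer groups in the model, and omission of each library. Where DESeq2 gave no adjusted p, none was used. Some genes that the rule took are not reported here. List counts and adduct counts under these settings, and the count of genes called in every fit with a library left out, were added after the data were seen.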

Additional observations from a re-analysis of the deposited data

Results flagged for a closer look

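The difference between CGA and CA was set against the difference between their cysteine adducts by a direct test, the contrast of the 2 ester effects, and it differed for 289 genes by edgeR. The values below are the ester effect of the parent acids minus that of the adducts on the log2 scale, for genes taken by the naming rule that passed and are reported here, with edgeR adjusted p at or under 0.05. Most of these genes were taken because they differed between CGA and CA, and the contrast holds that same difference. Their passing and their sign therefore lean toward the parent direction and are given as a description.

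The difference was positive for Serpinb2 (1.23), Marco (1.02), Rassf2 (0.904), Thbs1 (0.811), Iqgap3 (0.533), Adgre1 (0.522), Fosl2 (0.443), Hif1a (0.395) and Irak3 (0.308). Among antioxidant and detoxification genes it was negative for Gss (-0.57), Ptgr1 (-0.567), Srxn1 (-0.556), Cbr3 (-0.556), Sqstm1 (-0.397), Gclc (-0.388), Blvrb (-0.363), Gclm (-0.322), Akr1a1 (-0.302), Prdx6 (-0.286) and Slc3a2 (-0.253). It was also negative for the metal exporters Slc40a1 (-0.729) and Slc30a1 (-0.573), and for Unc5b (-0.844), Lyrm4 (-0.724), Plk2 (-0.673), Afp (-0.561), Atf3 (-0.463) and Cdkn1a (-0.327).

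The largest differences by the naming rule, beside Serpinb2, were of low-count genes. Krt16, a keratin gene, gave -1.65, with 2.67, 3.66 and 3.49 CPM with CA, 2.91, 2.21 and 1.45 CPM with CGA, 8.58, 7.37 and 7.99 CPM with CACys and 16.7, 17.8 and 15.2 CPM with CGACys. Cdcp1, a transmembrane protein gene, gave -1.13 and the linker histone gene Hist1h1e gave -1.07. None of these 3 was called between the parent acids.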

How the results depend on the processing

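CGA against CA gave 183 calls, and 419 by DESeq2, 614 with no expression filter, 3 in a model of only these groups and 85 without the control libraries. Calls higher with CGA (84) became 229, 361, 1 and 44 in that order, and calls lower with CGA (99) became 190, 253, 2 and 41. In the model of only these groups 1332 genes had an unadjusted p under 0.05, and 19 genes had an adjusted p at or under 0.06. CGACys against CACys gave 239 calls, and 386 by DESeq2, 409 with no filter and 560 in a model of only its groups. The difference between the ester effects gave 289 calls, and 443, 457 and 166 under those settings. CA against LPS gave 1023 calls, and 434 in a model of only its groups. CGA against LPS gave 96 calls, and 258 by DESeq2, 290 with no filter, 283 in a model of only its groups and 54 without the control libraries. The cause was not tested.

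With each library left out in turn, the calls ranged from 45 to 1063 for CGA against CA (21 to 596 higher and 24 to 467 lower), from 87 to 198 for the adducts, from 162 to 519 for the difference between the ester effects, from 541 to 1439 for CA against LPS and from 0 to 233 for CGA against LPS. CGA against CA gave 183 calls with RLE factors, 202 with upper-quartile factors and 184 with a filter of 1 CPM in 3 libraries.

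With replicate number as a block, CGA against CA gave 169 calls, of which 157 were shared in direction with the 183, and CGA against LPS gave 197. The numbers do not pair the samples, so the block says nothing of effect size.

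Directions turned only for uncalled genes with differences near 0 or few counts. Ifnb1 was 0.0105 with the block, 1.88 without CA replicate 2, 0.133 without CGA replicate 1 and 0.119 without CGA replicate 3. With a library left out, Ifnb1 ranged from -0.52 to 1.88, Slc7a11 from -0.18 to 0.025 (positive without CA replicate 1), Ifit1 from -0.038 to 0.0902 (negative without CA replicate 1 or CGA replicate 2, at -0.036) and Cdkn1a from -0.086 to 0.00092 (positive without CGA replicate 3). Ifnb1 stayed below 1 CPM, and the effect of depth on it was not tested.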

Other observations

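Between the adducts, the pathway list with the most called members was 1 that held none between the parent acids. Of 23 tested genes for cholesterol synthesis and uptake, 15 were lower with CGACys than with CACys and none higher by edgeR. Of all tested genes 1.8% were called between the adducts. The median log2 difference of the 23 was -0.30. Between CGA and CA none of the 23 was called by edgeR, DESeq2 called 4 higher, edgeR called 2 higher with no filter or without CA replicate 1 and 3 higher without CA replicate 3, 7 had an unadjusted edgeR p under 0.05, and the median was 0.09. The direct test of the difference between the ester effects was passed by 14 of the 23, against 2.18% of all tested genes.

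Among the 20 tested macrophage identity genes, none was higher and 5 were lower with CGACys than with CACys, and 7 passed the test of the difference between the ester effects. Over all tested genes, 1.8% were called between the adducts and 2.18% passed that test. Lyz2, the lysozyme gene of myeloid cells, named after its values were seen, differed by 0.04 between the parent acids (edgeR adjusted p = 0.744) and by -0.34 between the adducts (edgeR adjusted p = 0.00156). Of 50 interferon-stimulated genes, 7 were higher and none lower with CGACys than with CACys, against 1.8% of all tested genes called, and their median was 0.28.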
